A study of Mus musculus with 9 samples.

Results

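The immediate early transcription factors examined here are 10 genes: the zinc finger factors Egr1, Egr2 and Egr3, the AP-1 subunits Fos, Fosb, Fosl1, Jun and Junb, and the response genes Ier2 and Ier3. They were taken by symbol from the 54838 gene identifiers of the count table. All 10 were found and passed the filter on low counts, which left 13153 genes. The group was chosen by the level of Egr1 RNA, which was near absent in 1 of the 3 groups of cells, so that level is a description and was given no test. The other 9 genes were added by family, and their values were tested in a fit over all genes. RNA was sequenced from mouse PDA530 Met cells, a pancreatic ductal adenocarcinoma line grown out of a metastasis in the liver of a KPC mouse, a male of mixed 129/SvJae/C57Bl/6 background. All groups share that origin. The parental line was not cloned. The control, clone C5, grew from a single cell that had received the guide RNAs against Zdhhc20, a palmitoyltransferase, by nucleofection but was not edited. The knockout, clone E4, grew from a single cell edited with CRISPR/Cas9 in Zdhhc20. Each group had 3 libraries. Control and knockout are 1 clone each, so their libraries show the spread within a clone and not between clones. The cells were untreated and in ordinary growth in medium with 10% serum.

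Immediate early genes are transcribed within minutes of a signal, without new protein synthesis, and their RNAs are short-lived. Growth factors and adhesion act on them largely through the ERK kinase cascade, which switches on ternary complex factors. These are bound with serum response factor (SRF) at CArG boxes. Signals also act through CREB family factors at cAMP response elements (CRE). EGR proteins bind GC-rich sites, while FOS and JUN proteins pair through leucine zippers to form AP-1. In carcinoma cells some of these genes are kept on during steady growth, and FOSL1 (FRA-1) is known for this.

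Promoter sequences are shown first, because genes of this kind are known to share modes of induction. RefSeq promoter windows (build GRCm38.p6) were used for 6 of the 10 genes, at 10 annotated starts. No window was at hand for Egr3, Fosl1 and Ier2, and the promoter of Egr1 was left out of the search. The 250 bases before each start were searched on both strands for the CArG box, for TGACNTCA (the CRE and the related site known from Jun), for the CRE core TGACG, for the AP-1 site TGANTCA and for the EGR site GCGNGGGCG. TGACG lies within those matches to TGACNTCA that have G at the open base. The 5 stretches below run 5′ to 3′ along the gene's own strand from base -200 to base -31 relative to the start, and capitals mark the matches. They hold every kind of match found, and they come from genes that stood in different orders across the groups. For Egr2, the third of its 5 RefSeq starts is shown.
Egr2 (chr10:67537669-67537838, + strand): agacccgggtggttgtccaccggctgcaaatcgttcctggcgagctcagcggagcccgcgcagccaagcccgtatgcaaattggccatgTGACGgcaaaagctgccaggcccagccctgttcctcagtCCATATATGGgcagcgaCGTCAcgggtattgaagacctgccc
Fos (chr12:85473690-85473859, + strand): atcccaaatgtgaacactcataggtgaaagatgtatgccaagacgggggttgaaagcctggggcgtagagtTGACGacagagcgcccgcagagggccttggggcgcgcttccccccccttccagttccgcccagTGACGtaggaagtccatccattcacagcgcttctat
Fosb (chr7:19310076-19310245, - strand): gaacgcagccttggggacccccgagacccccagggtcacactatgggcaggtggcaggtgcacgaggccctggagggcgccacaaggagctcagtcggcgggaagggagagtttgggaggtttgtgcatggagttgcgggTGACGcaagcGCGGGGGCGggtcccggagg
Jun (chr4:95052253-95052422, - strand): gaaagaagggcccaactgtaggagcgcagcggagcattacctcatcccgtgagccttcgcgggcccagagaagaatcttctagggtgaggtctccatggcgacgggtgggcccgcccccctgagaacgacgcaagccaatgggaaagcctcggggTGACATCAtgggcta
Junb (chr8:84978779-84978948, - strand): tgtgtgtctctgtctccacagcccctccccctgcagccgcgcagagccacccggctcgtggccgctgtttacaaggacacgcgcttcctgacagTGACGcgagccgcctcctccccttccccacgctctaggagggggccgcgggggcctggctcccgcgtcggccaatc

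A CArG box was found in the searched window of Egr2 alone among the 6 genes, at 4 of its 5 starts, and 1.47% of all 32851 promoter windows held one. The windows of starts 3, 4 and 5 overlap and hold the same box, so these are 2 distinct boxes. The CRE core was present at 6 of the 10 starts, the 3 overlapping windows of Egr2 and the windows of Fos, Fosb and Junb, and in 17.8% of all windows. Because Egr2 enters with several windows that share sequence, these counts are not set against the shares of all windows. TGACNTCA was found in Jun alone (7.49% of all windows) and the EGR site in Fosb alone (4.7%). The AP-1 site was found in 0 of the 6 genes (6.75% of all windows), and Ier3 held no match. Only the 250 bases before each start were searched, so a site farther upstream in any of these genes would be missed. A match is a run of letters and was not tested for binding.

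Libraries held 16525869 to 23192701 counts. Zdhhc20 was at 33.9 to 42.5 CPM (counts scaled to a common depth, after TMM scaling) in E4, 85.8 to 123 in C5 and 75.3 to 90.7 in the parental line. Of the markers of the labelled epithelial type, Krt8, Krt18, Krt19 and Cdh1 each averaged above 100 CPM in every group, while Epcam stayed under 1 CPM in every library. In E4 against the parental line 5 of the 9 markers of this list were called lower (18.3% of all genes) and 2 higher (13.1%). Krt19 averaged 172 CPM in E4, 1491 in C5 and 1141 in the parental line, a log2 fold change of -2.73 for E4 against the parental line (adjusted p 0.000278). Cldn4 (3.29, adjusted p 0.0014) and Epcam (1.58, adjusted p 0.0139) were higher in E4, each at no more than 2.04 CPM. The call of Epcam was lost without E4 replicate 1 or parental replicate 2 (adjusted p up to 0.066). Both genes passed the filter on low counts only through E4, so nothing is read from these 2 calls. In C5 against the parental line 2 of the 9 were called higher (10.4% of all genes), Krt7 (1.09, adjusted p 0.000446) and Muc1 (1.39, adjusted p 0.000105). The part of these shifts in the results below was not tested. Fibroblast markers summed to at most 4.05 CPM in any library, with Col1a2, Col3a1, Dcn and Lum at 0 counts throughout, and Pdgfra was at most 3.56 CPM and lower in E4 than in the parental line (-2.04, adjusted p 0.00281). Leukocyte markers summed to at most 2.88 CPM (Adgre1 at 0), endothelial markers to 0.525 and hepatocyte markers to 3 (Fgb at 0), with Ttr at 0 in every E4 library and at most 2.35 CPM elsewhere. The C5 libraries were less alike than the others: log2 CPM of C5 replicate 2 correlated at 0.964 with replicate 3, while E4 libraries correlated with each other at 0.990 to 0.991.

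**Figure D1:**
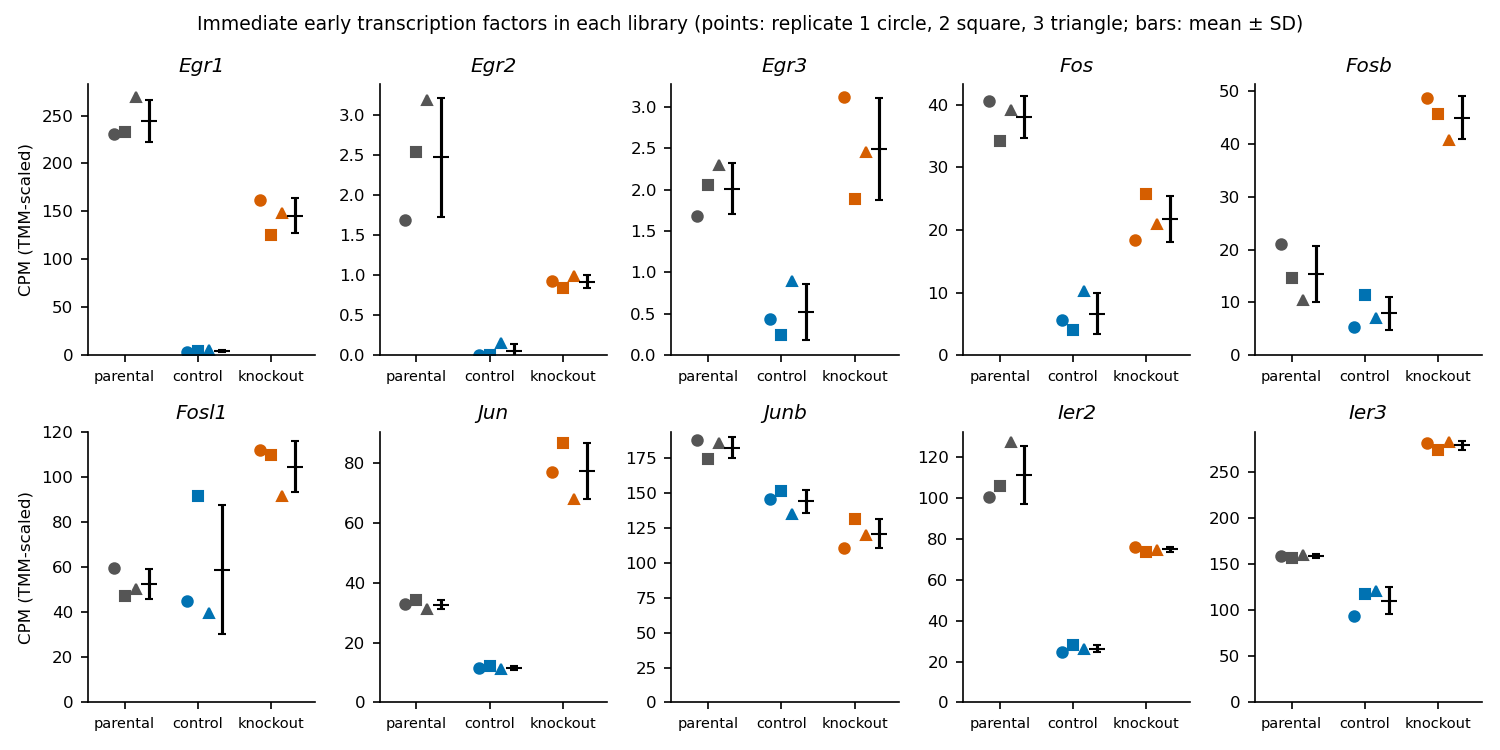
TMM-scaled CPM of each of the 10 genes (1 panel each, linear axis from 0) in the 3 parental, 3 control (C5) and 3 knockout (E4) libraries, with the mean and SD of each group as a black bar. Control libraries lie lowest in the panels of Egr1, Egr2, Egr3, Fos, Jun, Ier2 and Ier3, and Egr1 goes from 230.3 to 269 CPM in the parental line down to 3.49 to 5.46 CPM in C5.

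EGR1 is a zinc finger factor induced by growth factors. Egr1 (ENSMUSG00000038418, chromosome 18 from 34859823 to 34864984 in GRCm38) was at 230.3, 233 and 269 CPM in the parental libraries. In E4 it was at 162, 126 and 149 CPM, and in C5 at 3.49, 3.87 and 5.46 CPM. The 3 groups did not overlap, and the highest C5 library lay far below the lowest of the other 6. Group means were 244 ± 21.8 CPM in the parental line, 145 ± 18.4 CPM in E4 and 4.27 ± 1.04 CPM in C5 (SD, n = 3). C5 was thus 57.1-fold below the parental line and 34.0-fold below E4, or -5.84 (SE 0.18) for C5 minus parental and 5.09 (SE 0.18) for E4 minus C5 on the log2 scale. Egr1 was still counted there, with 80, 65 and 104 reads. The choice did not use the difference of E4 from the parental line, which was -0.75 (SE 0.14, adjusted p 0.00382 from edgeR's quasi-likelihood test with Benjamini-Hochberg adjustment over the 13153 genes, as for every adjusted p here).

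EGR2 and EGR3 are close relatives of EGR1 with the same kind of DNA-binding domain. Egr2 was scarce everywhere, at 1.69, 2.53 and 3.18 CPM in the parental libraries, 0.928, 0.835 and 0.993 in E4, and 0, 0 and 0.157 in C5. The groups did not overlap, in the same order as for Egr1. Only 3 reads fell on Egr2 in C5, against 132 in the parental line and 51 in E4. The depth-scaled ratio of the parental line to C5 was 47.3, with a 95% exact interval from 15.8 to 232, and that of E4 to C5 was 18.0, from 5.82 to 90.1. Both intervals cover counting error only. All 3 of the C5 reads came from replicate 3, so both ratios rest on that library, and C5 replicates 1 and 2 held 0 reads. Egr2 passed the filter only through the groups where it was higher. Its differences from C5 are therefore given by these ratios, without the test. E4 differed from the parental line by -1.41 (SE 0.45, adjusted p 0.0396). This last call was lost when any E4 library, parental replicate 2 or parental replicate 3 was left out, and with the replicate block, with adjusted p up to 0.155.

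Egr3 followed another order. It was at 1.69, 2.06 and 2.29 CPM in the parental libraries, 3.13, 1.89 and 2.45 in E4, and 0.436, 0.238 and 0.892 in C5. The parental and E4 libraries overlapped, and all 6 lay above C5. It too passed the filter only through those groups, with 31 reads in C5 against 109 in the parental line and 140 in E4. The depth-scaled ratio of the parental line to C5 was 3.78 (95% exact interval 2.51 to 5.83) and that of E4 to C5 was 4.78 (3.22 to 7.29), again for counting error only. Of the 31 C5 reads, 17 came from replicate 3. Without that library the fitted log2 difference from C5, given here with no test, moved from 2.23 to 2.82 for E4, and that of C5 from the parental line moved from -1.92 to -2.50. E4 minus parental was 0.31 on the log2 scale (SE 0.36, adjusted p 0.543). Egr4, the remaining family member, held at most 1 count in any library. Per kilobase of annotated exon, Egr1 made up 97.4% to 97.6% of EGR family transcripts in E4, 97.6% to 98.3% in the parental line and 83.0% to 91.3% in C5. The family summed to 55.6 ± 5.11 CPM per kilobase in the parental line, 33.3 ± 4.25 in E4 and 1.1 ± 0.322 in C5 (SD, n = 3).

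FOS is the classical serum-induced partner of JUN proteins. Fos was at 40.6, 34.2 and 39.2 CPM in the parental libraries, 18.5, 25.8 and 21 in E4, and 5.63, 3.99 and 10.3 in C5. The groups did not overlap and stood in the order of Egr1 and Egr2. Fos was lower in C5 than in parental cells (-2.51, SE 0.29, adjusted p 0.000564) and higher in E4 than in C5 (1.71, SE 0.28, adjusted p 0.00122). The smaller difference of -0.80 for E4 minus parental (SE 0.26, adjusted p 0.0439) was lost when any library except C5 replicate 2 or 3 was left out, with adjusted p up to 0.154.

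FOSB is a FOS relative with a similar leucine zipper. Fosb was at 48.7, 45.6 and 40.7 CPM in E4, 21, 14.6 and 10.5 in the parental libraries, and 5.41, 11.4 and 6.98 in C5. The E4 libraries stood clear of all others, while C5 replicate 2 reached into the parental range. E4 was higher than C5 by 2.52 (SE 0.30, adjusted p 0.000195) and than the parental line by 1.55 (SE 0.28, adjusted p 0.0031). The difference of -0.97 for C5 minus parental (SE 0.29, adjusted p 0.0434) was lost in a fit of those groups alone and when any library except C5 replicate 2 or parental replicate 3 was left out, with adjusted p up to 0.149.

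FOSL1 lacks the strong activation domain of FOS and is the main FOS family protein in many transformed cells. Fosl1 was at 112, 110.1 and 91.5 CPM in E4, 59.8, 47.3 and 50.5 in the parental libraries, and 45.1, 91.8 and 39.7 in C5. C5 replicate 2 just exceeded the lowest E4 library, and the other C5 libraries lay below the parental line. E4 was higher than the parental line by 0.99 (SE 0.27, adjusted p 0.0222), which was no longer called without E4 replicate 1 or 2 or parental replicate 2 or 3 (adjusted p up to 0.0775). It was higher than C5 by 0.83 (SE 0.27, adjusted p 0.0338), which was no longer called when any 1 of the E4 libraries or C5 replicate 1 or 3 was left out, or in a fit of those groups alone (adjusted p up to 0.117). Without C5 replicate 2 it was 1.3 (adjusted p 3.32e-05). C5 did not pass the test against the parental line (0.16, SE 0.28, adjusted p 0.713), and without C5 replicate 2 the sign turned (-0.31, adjusted p 0.0896). Fosl1 overlaps Ccdc85b on the opposite strand, and the strand setting of the counting is not given, so reads of both cannot be told apart.

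JUN and JUNB are the JUN family partners, of which JUN is known to act on its own gene. Jun was at 77.2, 86.7 and 67.9 CPM in E4, 32.9, 34.2 and 31.2 in the parental libraries, and 11.4, 12.3 and 11.1 in C5. The groups did not overlap, and the C5 libraries lay close together, replicate 2 included. Jun was higher in E4 than in C5 by 2.74 (SE 0.11, adjusted p 5.32e-07) and than in the parental line by 1.24 (SE 0.10, adjusted p 4.8e-05). C5 was lower than the parental line (-1.50, SE 0.11, adjusted p 5.05e-05). These calls held under all 17 alternatives tried for single genes. Jun overlaps Junos on the opposite strand.

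Junb ran the other way between the clones. It was at 188, 174 and 186 CPM in the parental libraries, 146, 152 and 135 in C5, and 111, 132 and 120.4 in E4. The groups did not overlap, though the lowest C5 and the highest E4 library were close. Against the parental line Junb was lower in E4 (-0.60, SE 0.08, adjusted p 0.000802) and in C5 (-0.34, SE 0.08, adjusted p 0.0188). The C5 difference was not called without parental replicate 1 (adjusted p 0.066) or 3 (adjusted p 0.054). The difference of -0.25 for E4 minus C5 (SE 0.08, adjusted p 0.035) was lost in 11 of the 17 alternatives, among them each parental library left out and the scaling by total counts, with adjusted p up to 0.162. Junb overlaps Prdx2 on the opposite strand.

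IER2 and IER3 are small proteins made early in the same response, and IER3 is also known for its part in the survival of stressed cells. Ier2 was at 100.5, 106 and 127 CPM in the parental libraries, 76.1, 73.8 and 74.9 in E4, and 24.8, 28.1 and 26.2 in C5. It shared the order of Egr1, Egr2 and Fos, with no overlap between groups. C5 was lower than the parental line (-2.08, SE 0.10, adjusted p 7.41e-06), E4 was higher than C5 (1.51, SE 0.10, adjusted p 9.6e-06) and lower than the parental line (-0.57, SE 0.10, adjusted p 0.00211).

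Ier3 was at 281, 274 and 283 CPM in E4, 159, 157 and 160.3 in the parental libraries, and 93.4, 117 and 121 in C5. It shared the order of Jun, again with no overlap. E4 was higher than C5 by 1.34 (SE 0.10, adjusted p 1.46e-05) and than the parental line by 0.81 (SE 0.10, adjusted p 0.000314), and C5 was lower than the parental line (-0.52, SE 0.10, adjusted p 0.00519). All calls of Ier2 and Ier3 held under the 17 alternatives.

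**Figure D2:**
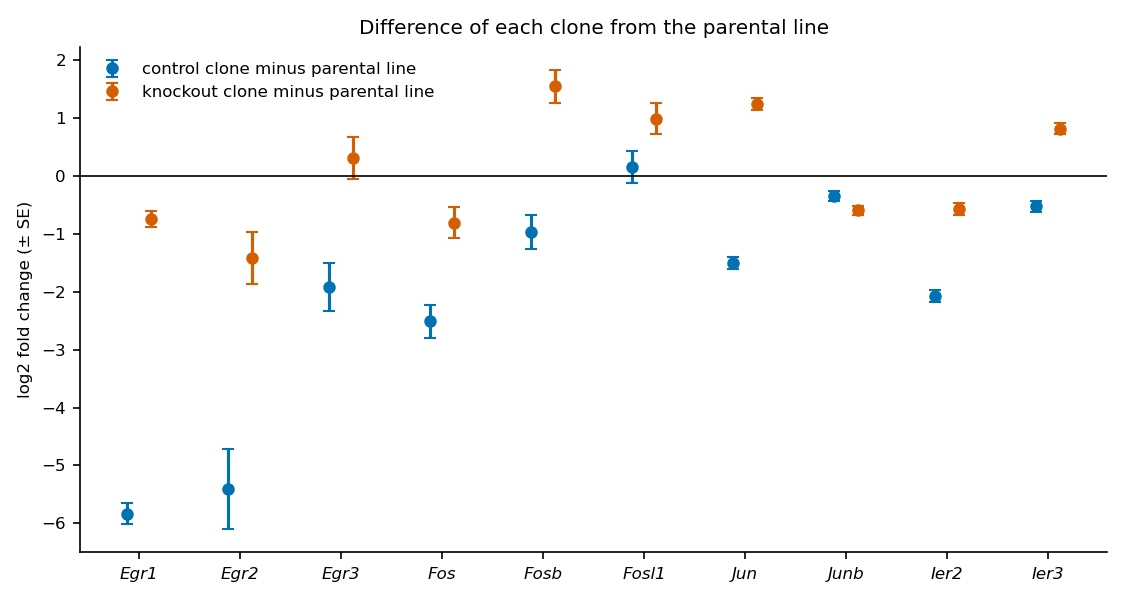
Log2 fold change of each gene against the parental line, with its standard error, for C5 (control, blue) and E4 (knockout, orange); both share the parental libraries. Of the blue points, 9 of 10 lie below 0, from -5.84 for Egr1 to -0.34 for Junb, while the orange points lie on both sides, from -1.41 for Egr2 to 1.55 for Fosb.

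Counted over the 9 genes other than Egr1, 8 were called in C5 against the parental line, where 21.4% of all tested genes were. All 8 were lower (11.0% of all genes) and 0 higher (10.4%; with scaling by total counts 61.2% of all calls here were lower, against 51.3%), also 0 at an unadjusted p under 0.05, by DESeq2 and by limma voom. Between the clones all 9 were called (42.9% of all genes), 8 higher in E4 (18.7%) and 1, Junb, lower (24.2%). C5 was lower than both other groups for 7 of the 9 (6.41% of all genes) and higher than both for 0 (7.01%). In 6 of the 9 (Egr2, Egr3, Fos, Jun, Ier2 and Ier3) all 3 C5 libraries lay below all 6 others, as they did for 10.9% of tested genes. These comparisons share the C5 libraries with the choice of the group, and Egr2 and Egr3 passed the filter only through the other groups, so nothing is read from these counts.

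In E4 against the parental line, a contrast the choice did not use, 8 of the 9 were called (31.4% of all genes). They were split evenly, with Fosb, Fosl1, Jun and Ier3 higher (13.1% of all genes) and Egr2, Fos, Junb and Ier2 lower (18.3%). E4 was higher than both other groups for those 4 higher genes (8.19% of all genes) and lower than both for 1, Junb (13.4%). The median log2 fold change of the 9 genes was 0.31 for E4 against the parental line, and over all tested genes this median was -0.01. By group means, 4 genes stood in the order parental, E4, C5 from high to low (Egr1, Egr2, Fos and Ier2) and 4 in the order E4, parental, C5 (Egr3, Fosb, Jun and Ier3). For Egr3 and Fosb a pair of neighbours in that order overlapped, as given above. Fosl1 and Junb followed neither order. In bulk RNA, fewer cells with a transcript and less of it per cell cannot be told apart.

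Because levels of different genes can be compared only per length, the AP-1 subunits were set side by side as CPM per kilobase of annotated exon, with Fosl2 and Jund added to complete the families. Fosl1 was the most abundant FOS family transcript in every group, at 25.8 ± 3.19 in the parental line, 29.0 ± 14.1 in C5 and 51.4 ± 5.58 in E4 (SD, n = 3). Fos made up 30.6% to 33.7% of FOS family transcripts in the parental libraries, 9.51% to 13.3% in E4 and 2.83% to 12.5% in C5. The share of Fos was thus higher in every parental library than in any clone library. Fosb made up 8.85% to 9.46% in E4 and at most 5.97% in any other library. Within the JUN family, Jun made up 20.1% to 23.7% in E4, 8.28% to 9.73% in the parental libraries and 3.60% to 4.29% in C5. Junb made up 68.4% to 71.7% of the family in the parental libraries, 60.9% to 73.5% in C5 and 45.2% to 49.9% in E4. The C5 range thus spanned that of the parental line. Both families together summed to 188 ± 9.80 CPM per kilobase in E4, 165 ± 7.39 in the parental line and 136 ± 11.4 in C5 (SD, n = 3). These sums and shares were not tested.

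**Figure D3:**
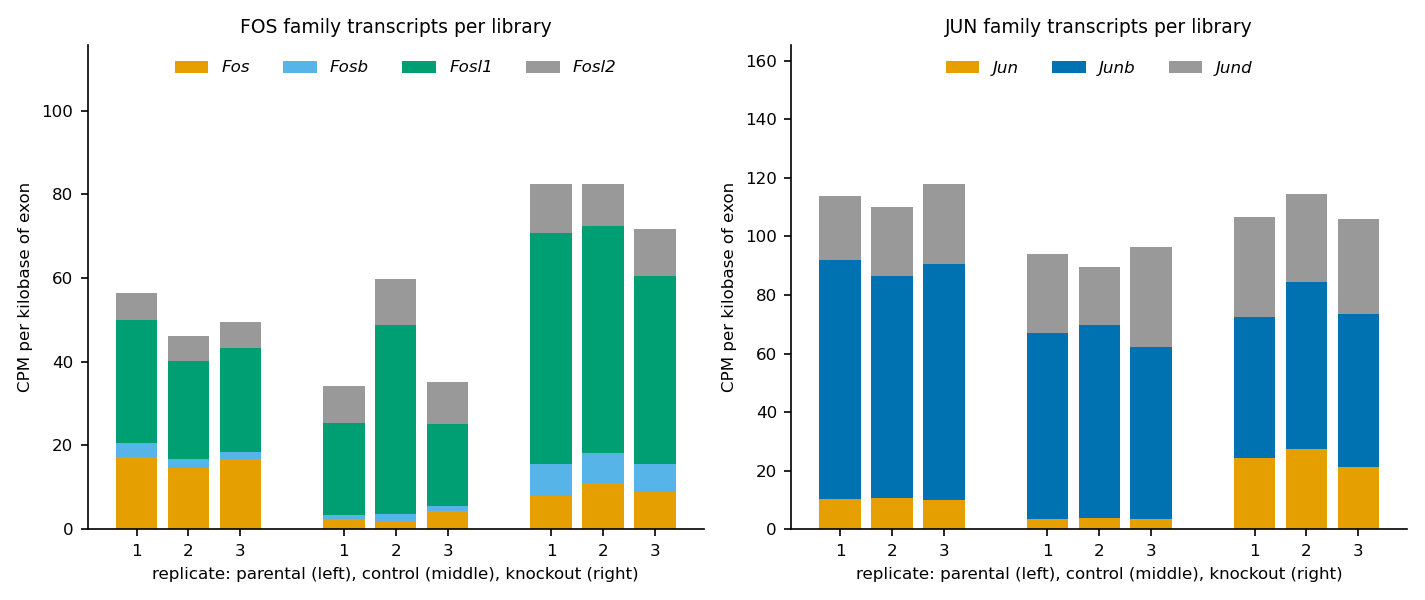
Stacked bars of CPM per kilobase of exon for the FOS family (left panel) and JUN family (right panel), 1 bar per library, axis from 0. Fosl1 (green) fills most of each FOS bar, the Fos segment (orange) is tallest in the parental libraries, and the Jun segment (orange, right) takes 20.1% to 23.7% of the knockout (E4) bars and 3.60% to 4.29% of the control (C5) bars.

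Among 12 other AP-1 and related leucine zipper genes, 10 were tested. In C5 against the parental line 2 were called higher (10.4% of all genes) and 0 lower (11.0%), with 0 lower also at an unadjusted p under 0.05, by DESeq2 and by limma voom. The higher ones were Fosl2, another FOS family member (0.68, adjusted p 0.00193), and Maff, a small MAF protein (0.77, adjusted p 0.0196). Fos and Jun were lower in the same comparison. In E4 against the parental line 5 were called higher (13.1% of all genes) and 1 lower (18.3%). The lower count was 2 by DESeq2, 2 by limma voom and 3 at an unadjusted p under 0.05. With C5 replicate 2 left out, 7 were called higher (19.2% of all genes) and 2 lower (23%). The lower one in edgeR with all libraries was Jdp2, a repressor of AP-1 (-1.78, SE 0.37, adjusted p 0.00579), which was also lower than in C5 (-1.27, adjusted p 0.02). Atf3, a stress-induced factor, was higher in E4 than in C5 by 1.48 (adjusted p 0.00185) and than in the parental line by 0.99 (adjusted p 0.0182). With 1 library left out, the call of Maff was lost without parental replicate 1 or 2 (adjusted p up to 0.0834), that of Jdp2 between the clones without E4 replicate 2 or 3 (up to 0.0746), and that of Atf3 against the parental line without any 1 of the E4 libraries or parental replicate 2 (up to 0.0761).

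Of 40 other immediate early genes, 36 were tested. In C5 against the parental line 7 were called lower (11.0% of all genes) and 2 higher (10.4%), with a median log2 fold change of -0.18. Dusp1, a phosphatase that switches off MAP kinases, was at 17.3, 36.5 and 18.5 CPM in C5, 73.4, 66.6 and 97.1 in the parental libraries, and 114, 130.3 and 109 in E4. Its C5 libraries lay below all others, with a difference of -1.72 from the parental line (SE 0.27, adjusted p 0.00257). Sgk1, a serum-induced kinase, was lower in C5 by -1.54 (SE 0.19, adjusted p 0.000806) and F3, the gene of tissue factor, by -1.12 (SE 0.32, adjusted p 0.0368). F3 was at 17.9, 45.6 and 18.1 CPM in C5 and 68.5, 56.9 and 50.2 in the parental libraries. Its difference from the parental line was -1.71 without C5 replicate 2 (adjusted p 8.62e-05), and the call was lost when any other single library was left out (adjusted p up to 0.11). These 3 genes were also lower in C5 than in E4 by more than 1 on the log2 scale, with E4 above C5 by 1.38 for F3 (1.97 without C5 replicate 2). Without C5 replicate 2, a setting chosen after seeing the data, 14 of the 36 were called lower and 2 higher, while 14.9% and 14.3% of all genes were.

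Some of these genes were uneven within C5. Ccn1, a matricellular gene, was at 109, 519.9 and 170.1 CPM in C5 replicates 1, 2 and 3, Plk2, a serum-induced kinase, at 22.2, 96.2 and 16.7 CPM, and Ptgs2, which makes prostaglandins, at 66.7, 239 and 102 CPM. Replicate 2 was the highest C5 library for 19 of the 36 genes (52.8%), and for 39.9% of all tested genes. In replicate 2, Egr1, Jun, Ier2, Ier3 and Junb were 0.864, 1.09, 1.1, 1.1 and 1.08 times the mean of replicates 1 and 3. Fosl1 was 2.17 times and Fosb 1.83 times that mean. Fos was 0.501 times and Egr3 0.358 times it, and Egr2 had 0 reads in replicate 2.

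In E4 against the parental line 13 of the 36 were called higher (13.1% of all genes) and 3 lower (18.3%). Against C5, 18 were called higher (18.7%) and 4 lower (24.2%). Against the parental line without C5 replicate 2, 16 were called higher (19.2% of all genes) and 6 lower (23%). Ptgs2 was at 725, 694 and 645 CPM in E4, above C5 by 2.34 (adjusted p 0.00138; 3.04 without C5 replicate 2) and the parental line by 1.92 (adjusted p 0.00544). Plk2 was above the parental line by 1.68 (adjusted p 0.0391), Rhob, a small GTPase, by 1.22 (adjusted p 4.06e-05) and Ier5l by 1.04 (adjusted p 0.0405), and these 3 were above C5 by more than 1 as well. The calls against the parental line were lost for Plk2 when any 1 of the E4 or parental libraries was left out (adjusted p up to 0.123), and for Ier5l without E4 replicate 1 or 3 or any 1 of the parental libraries (up to 0.138). Between the clones Plk2 differed by 1.67, which was 2.87 without C5 replicate 2 (adjusted p 9.83e-07) and was not called without any 1 of the E4 libraries or C5 replicate 1 (up to 0.0984). Klf4, a zinc finger factor, was lower in E4 than in the parental line (-1.84, adjusted p 0.000238) and C5 (-1.85, adjusted p 0.000141).

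**Figure D4:**
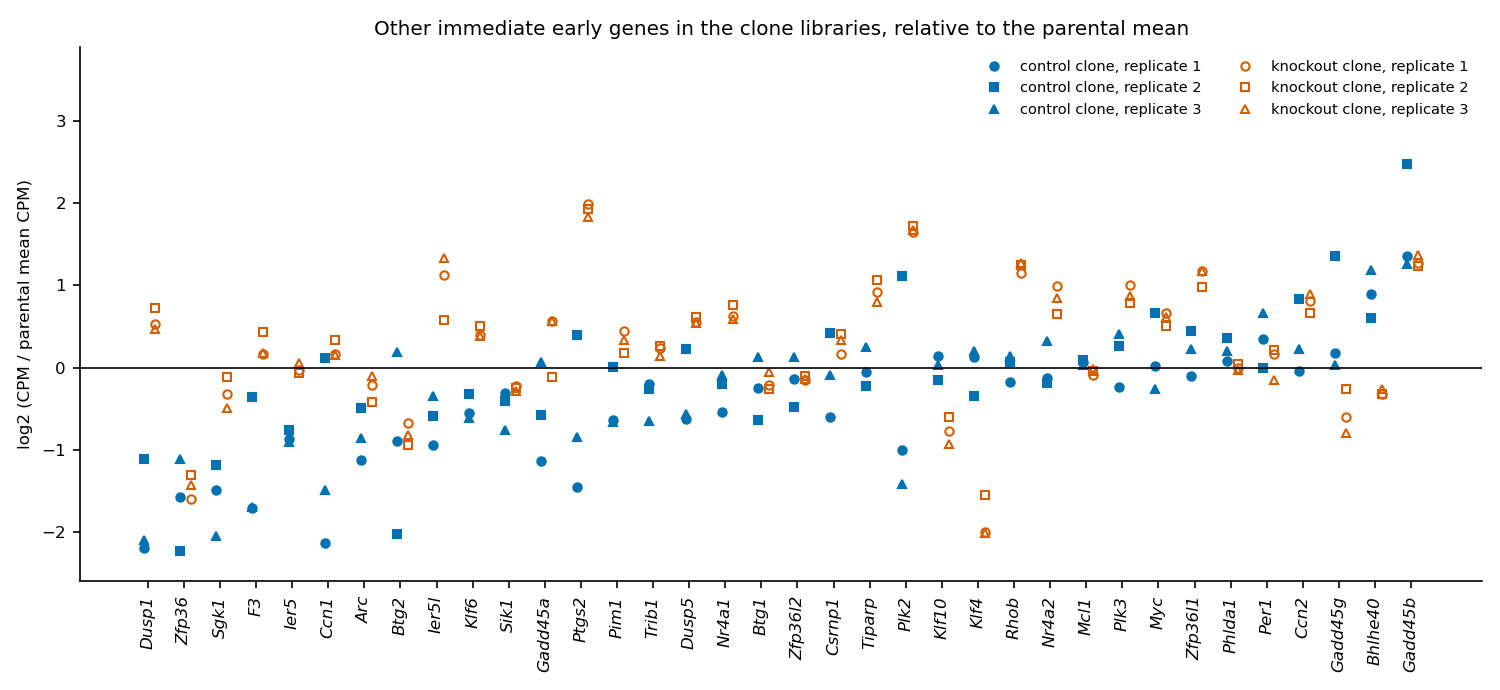
Log2 ratio of each clone library to the parental mean for the 36 tested immediate early genes outside the group of 10, ordered by the fitted difference of C5 from the parental line (filled blue: control, C5; open orange: knockout, E4; circle, square and triangle for replicates 1, 2 and 3). Dusp1, Zfp36 and Sgk1 lie below the line in all 3 C5 libraries, whereas Ccn1, Ptgs2 and Plk2 of C5 replicate 2 (squares) sit apart from replicates 1 and 3.

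All 18 upstream regulators were tested. In C5 against the parental line 4 were called lower (11.0% of all genes) and 0 higher (10.4%). The higher count was 0 also at an unadjusted p under 0.05, by DESeq2 and by limma voom. The lower count was 7 by DESeq2 (13.3% of all genes), 4 by limma voom (11.4%) and 8 at an unadjusted p under 0.05. Leaving out C5 replicate 2 gave 4 lower (14.9% of all genes) and 1 higher (14.3%). The lower ones in edgeR with all libraries included the ternary complex factors Elk1 (-0.48, adjusted p 0.0254) and Elk4 (-0.29, adjusted p 0.0471). The others were the kinases Rps6ka3 (-0.43, adjusted p 0.0361) and Rps6ka4 (-0.40, adjusted p 0.00351), which act downstream of MAP kinases. With 1 library left out, Elk1 was not called without C5 replicate 1 or parental replicate 1 or 2 (adjusted p up to 0.0893). Elk4 was called only without E4 replicate 2 or C5 replicate 3 (otherwise up to 0.135), and Rps6ka3 only without C5 replicate 2 or 3 (otherwise up to 0.123). Srf was at 41.2, 53.9 and 40.7 CPM in C5 and 41.5, 37.2 and 39.3 in the parental libraries (0.20, adjusted p 0.259). It was at 62.4, 72.8 and 65.6 CPM in E4, above the parental line by 0.77 (adjusted p 0.00134). Map2k1, a kinase of the ERK cascade, was lower in E4 than in the parental line (-0.64, adjusted p 0.00244). In E4 3 of the 18 were called higher (13.1% of all genes) and 4 lower (18.3%) than in the parental line. RNA levels do not give the activity of these kinases.

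Of 11 ERK feedback genes, 1 was called lower (Etv5, -0.44, adjusted p 0.0248) and 1 higher (Dusp4, 0.62, adjusted p 0.0122) in C5 against the parental line, where 11.0% and 10.4% of all genes were. Without C5 replicate 2 the counts were 2 and 3, and the shares of all genes 14.9% and 14.3%. Dusp6, a phosphatase specific to ERK, was at 116, 128 and 163 CPM in C5 and 164, 154 and 164 in the parental libraries (-0.24, SE 0.12, adjusted p 0.173). In E4 against the parental line 5 were called higher (13.1% of all genes) and 1, Spry1, lower (18.3%). Spry2, an inhibitor of receptor signalling, was at 86.9, 86.7 and 90.7 CPM in E4 and 46.8, 45.0 and 40.0 in the parental libraries (adjusted p 0.000503), and was above C5 by 1.16 (adjusted p 0.000145). The call of Etv5 was lost without C5 replicate 1 or parental replicate 1 or 2 (adjusted p up to 0.0896), and that of Spry1 when any 1 of the E4 or parental libraries was left out (up to 0.0871).

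Genes known as targets were followed next. Of 13 EGR corepressors and targets, 0 were called lower in C5 against the parental line by edgeR, with 3 at an unadjusted p under 0.05, 1 by DESeq2 and 0 by limma voom, while 11.0% of all genes were called lower. The 2 called higher (10.4% of all genes) were Pdgfb (0.59, adjusted p 0.00886) and Vegfa (0.95, adjusted p 0.0109), which encode growth factors, and the call of Vegfa was lost without parental replicate 1 or 2 (adjusted p up to 0.0513). Nab2, a corepressor that EGR proteins are known to induce, was at 8.69, 10.6 and 8.08 CPM in C5 and 8.77, 8.25 and 8.53 in the parental libraries, a difference of 0.10 (SE 0.16, adjusted p 0.697). Nab1 differed by -0.25 (adjusted p 0.0642). In E4 4 of the 13 were called higher (13.1% of all genes) and 3 lower (18.3%) than in the parental line. Fgf2, a growth factor, was at 0.293, 0.111 and 0.584 CPM in E4 against 9.73, 12.8 and 14.9 in the parental libraries. In C5 it was at 32.3, 8.57 and 52.4 CPM. E4 minus parental was -5.24 (adjusted p 0.00119), and -5.86 without E4 replicate 3. Fgf2 passed the filter on low counts only through the parental line and C5, where it was higher, so nothing is read from this call. Icam1, an adhesion molecule, was lower in E4 than in both others (-1.30, adjusted p 7.81e-06, and -1.44, adjusted p 2.66e-06), and Cdk5r1 was higher (1.11, adjusted p 0.02, and 1.48, adjusted p 0.00393). The first of these Cdk5r1 calls was lost without any 1 of the E4 libraries or parental replicate 2 or 3 (adjusted p up to 0.0741).

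Of 15 AP-1 target genes, 11 were tested. In E4 against the parental line 6 were called higher (13.1% of all genes) and 0 lower (18.3%), with 0 lower also at an unadjusted p under 0.05, by DESeq2 and by limma voom. Mmp10, a secreted protease, was at 7.13, 4.62 and 7.77 CPM in E4 and at most 0.535 CPM in any other library. It passed the filter on low counts only through E4, where it was higher, so nothing is read from its calls here. Plau, which encodes urokinase, was higher in E4 than in the parental line by 1.55 (adjusted p 0.000177) and than in C5 by 1.27 (adjusted p 0.000287). In C5 against the parental line 2 were called higher (Mmp10 and Ccnd1; 10.4% of all genes) and 0 lower (11.0%), again with 0 lower by each of those counts. Without C5 replicate 2, 2 were called higher (14.3% of all genes) and 4 lower (14.9%). The call of Mmp10 in this comparison was lost without parental replicate 1 or 3 (adjusted p up to 0.0609). Replicate 2 was the highest C5 library for all 11 tested genes.

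Of 14 tested cytoskeletal targets of SRF and its MRTF cofactors, 1 was called lower in C5 against the parental line (Filip1l, -1.73, adjusted p 0.000452) and 1 higher (Cnn2, 0.71, adjusted p 0.0296). Of all genes 11.0% and 10.4% were. Without C5 replicate 2 the counts were 3 and 2, and the shares of all genes 14.9% and 14.3%. The call of Cnn2 was lost without E4 replicate 3 or any 1 of the parental libraries (adjusted p up to 0.0955). In E4 6 of the 14 were called higher (13.1% of all genes) and 5 lower (18.3%) than in the parental line, and 5 higher (18.7%) and 3 lower (24.2%) than in C5. In E4 Zyx, a focal adhesion protein, was higher than in the parental line (1.26, adjusted p 0.000893) and C5 (1.41, adjusted p 0.000321), and Fhl1 was lower (-5.61, adjusted p 0.000191, and -6.59, adjusted p 4.43e-05; -5.91 without C5 replicate 1). Of 11 heat shock genes, 1 was called lower in C5 against the parental line (Dnajb1, -0.24, adjusted p 0.046; 11.0% of all genes). In E4 4 were called higher (13.1% of all genes) and 4 lower (18.3%) against the parental line, among them Hspb1 (1.12, adjusted p 0.0173) and Hspa1a (-1.72, adjusted p 0.0427). With 1 library left out, Dnajb1 was called only without C5 replicate 3 (otherwise adjusted p up to 0.128) and Hspa1a only without C5 replicate 2 or 3 (otherwise up to 0.137). Hspb1 was not called without E4 replicate 2 or any 1 of the parental libraries (up to 0.0601).

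Egr1 was also set beside its neighbours on the chromosome, the 5 nearest tested genes in each direction. In C5 against the parental line, 2 of these 10 neighbours were called higher (10.4% of all genes), 2010110K18Rik by 1.13 (adjusted p 0.0411) and Sil1 by 0.52 (adjusted p 0.0227), and the fitted differences of all 10 were above 0. The call of Sil1 was lost without C5 replicate 1 or parental replicate 1 or 2 (adjusted p up to 0.106). That of 2010110K18Rik held only without E4 replicate 1 or 2 or C5 replicate 3 (otherwise adjusted p up to 0.154). The nearest tested gene before it, Kdm3b, was at 115 ± 7.09 CPM in C5 against 104 ± 2.87 in the parental line (SD, n = 3), a difference of 0.14 (SE 0.07, adjusted p 0.193). The nearest after it, Etf1, was at 605 ± 117 against 512 ± 30.9 CPM, a difference of 0.24 (SE 0.12, adjusted p 0.192). No tested gene from Cdc23, at -228.9 kb, to Gm5239, at 676.8 kb, thus shared the low level of Egr1 in C5.

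**Figure D5:**
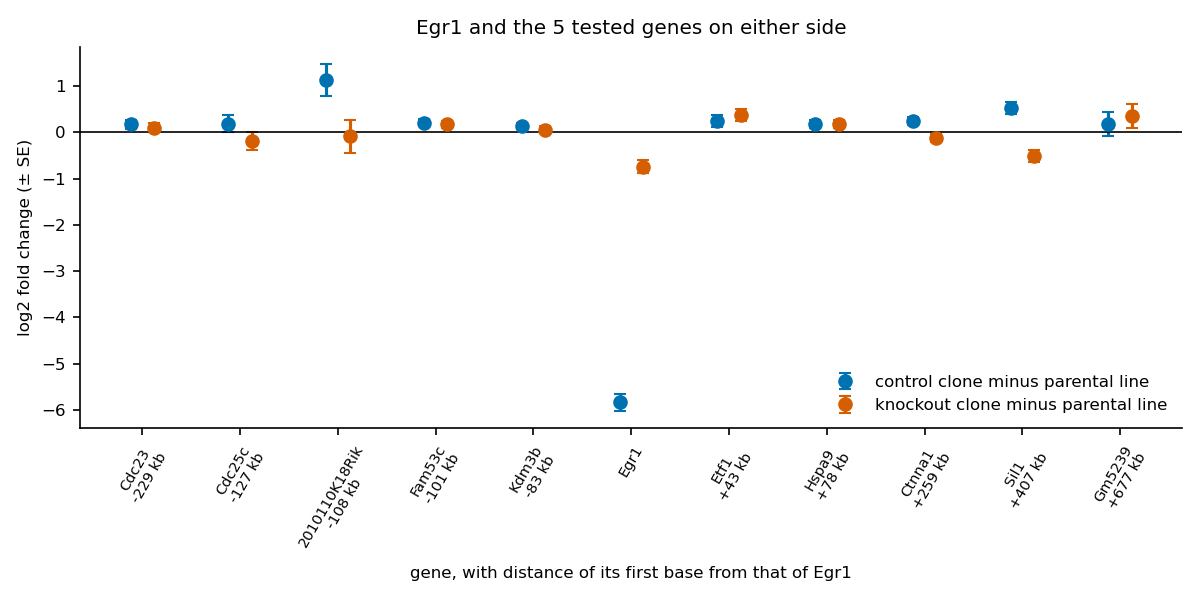
Log2 fold change against the parental line, with its standard error, of Egr1 and the 5 tested genes on either side, for C5 (control, blue) and E4 (knockout, orange), labelled by distance from Egr1 in kilobases. Egr1 lies at -5.84 in C5 while all 10 neighbours lie above 0 there.

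The genes most like Egr1 were sought among the 10405 genes that reached 5 CPM on average in some group, by the distance between the pairs of log2 fold changes of both clones from the parental line. The nearest was Cdh6, a type II cadherin, at a distance of 0.81 on the log2 scale, with 38.9 ± 4.69 CPM in the parental line, 1.11 ± 0.439 in C5 and 30.3 ± 3.51 in E4 (SD, n = 3). The next 4, Pla2r1, Mbnl3, Casd1 and Rasgrf2, were farther, at 2.33 to 2.92. Mbnl3, an RNA-binding protein, averaged 15.1 ± 1.52 CPM in the parental line, 1.51 ± 0.105 in C5 and 10.4 ± 1.22 in E4. This likeness rests on 3 groups and is a description. Egr2 was not ranked, since its highest group mean was 2.47 CPM, in the parental line. Its fitted differences from the parental line, given with no test, were -5.41 for C5 and -1.41 for E4. By the same distance Egr2 would lie slightly nearer to Egr1 than Cdh6 does, though its C5 value rests on 3 reads. Of 13153 genes, 35 had a fitted C5 minus parental difference as low as that of Egr1 or lower, Egr1 included.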

How the data were processed

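RNA-seq was done on 9 libraries of mouse PDA530 Met cells, 3 per group, from total RNA with the KAPA mRNA HyperPrep kit, per the labels' protocols. The values are RSEM estimated counts (expected counts) for each gene, deposited by the authors and all whole numbers. The submitters' processing notes name STAR 2.5.2, RSEM 1.3.0, DESeq2 1.10.1 and build GRCm38. The annotation release and strand setting are not given in the sources used here, so overlapping genes on opposite strands are uncertain. Symbols, positions and exon lengths are from GENCODE M21, which held 54809 of the 54838 identifiers.

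Counts were tested with edgeR 4.0.16 (glmQLFit, glmQLFTest) in R 4.3.3 after filterByExpr (minimum count 10, minimum total 15) and TMM scaling, with all 9 libraries in 1 fit by group; a gene was called at an adjusted p under 0.05. Each SE is the fold change on the log2 scale, without shrinkage, over the square root of F. Alternatives were DESeq2 1.42.0, limma 3.58.1 voom, other scalings and filters, a replicate block, fits of the compared groups alone, leaving out single libraries, and a threshold of 1 on the log2 fold change. For genes outside the group of 10, leaving out single libraries was an alternative chosen after seeing the data. The members, lists and rules were chosen with earlier results of these data known. Genes outside the 10 are named where they were called against both other groups in the same direction with a log2 fold change of at least 1, at most 4 per direction and list. Others were picked after their values were seen: the members called in a short list, and Ccn1, Srf, Map2k1, Dusp6, Nab1, Nab2, Atf3 and Zfp36. The design calls the replicates biological but does not say whether they were separate cultures, so p-values measure the spread between these libraries. Every pair of libraries differed by more than sampling noise (lowest chi-square per gene 4.9). Libraries with the same replicate number did not all deviate together (correlations from -0.134 to 0.212). With 3 libraries per group this cannot exclude a pairing by number. The main fit used no pairing, and the replicate block was an alternative. Some results are not reported here.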

Additional observations from a re-analysis of the deposited data

How the results depend on the processing

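Among the 10 genes 1 fitted difference changed its sign under an alternative: Fosl1, C5 minus parental, which leaving out 1 library moved from -0.31 (without C5 replicate 2) to 0.38 (without C5 replicate 3). The calls lost are named beside each gene above. Counted with Egr1, whose level in C5 chose the group, 10 genes were called between the clones (42.9% of all genes), 9 for E4 (31.4%) and 9 for C5 (21.4%) against the parental line, and nothing is read from the counts that involve C5. Leaving out 1 library gave 8 to 9, 6 to 9 and 7 to 9, and a log2 fold change of at least 1 left 3 for E4 against the parental line. With the replicate block, Egr2 in that comparison (-1.37, adjusted p 0.051) and Junb between the clones (-0.25, adjusted p 0.0551) were not called, no other call of the 10 genes changed, and the calls over all genes were 5528, 3941 and 2492. Without the block they numbered 5643 between the clones, 4131 for E4 and 2814 for C5 against the parental line. With a log2 fold change of at least 1 they were 1843, 1392 and 851. In fits of only the groups compared, E4 and C5 against the parental line gave 6840 and 1525. Leaving out 1 library gave 4301 to 7204, 2515 to 5693 and 1472 to 4102. At a mean of at least 5 CPM, Egr2 and Egr3 were not tested. Depth limits these 2 genes most, with 3 and 31 counts in C5.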
